A study of Drosophila melanogaster with 28 samples.

Results

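These data compare where CLAMP and a CLAMP mutant were found on chromatin when MSL2 was present, as read with the CLAMP antibody. The members are all peaks of 2 deposited peak lists, 429 peaks for MSL2 with CLAMP and 70 for MSL2 with the mutant. A peak counted as found in both lists if it overlapped a peak of the other by at least 1 bp. This gave 17 regions in both lists, 412 peaks found only with CLAMP and 53 found only with the mutant, or 482 regions of the 1098 that the 9 lists of the series cover together. The study asked how transcription factors cooperate and compete for DNA.

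Each group was chromatin assembled for 5 h in vitro on genomic DNA purified from BG-3 cells, a Drosophila cell line from the larval central nervous system. One group received MSL2 and CLAMP and the other MSL2 and the CLAMP mutant, bound for 30 min, and each was crosslinked and partly digested with MNase before the immunoprecipitation. Each group had 2 libraries, and both were compared with the same 2 negative control libraries of the CLAMP antibody. The labels do not describe the mutation, the protein amounts or what the negative controls received. The chromatin is built on naked DNA, so it carries the sequence of these cells but none of their own proteins. The libraries of a group were merged before peaks were called, so no value below has a replicate error and no test between the mixtures was possible. Intervals in parentheses are exact 95% intervals for the counting of peaks alone.

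CLAMP recognises GA-rich DNA on all chromosomes through its zinc fingers. MSL2 is the male-specific DNA-binding subunit of the dosage compensation complex, which raises transcription from the single X chromosome of males, and it also prefers GA-rich elements. The pair is known to interact and to help each other onto sites on X. The FLAG lists of the series, which hold CLAMP or the mutant without MSL2, give a second view of the same proteins with another antibody.

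With MSL2 present, CLAMP gave 6.13-fold more peaks than the mutant from fewer tags. The list with CLAMP rested on 3875205 tags and that with the mutant on 5949274, 1.54-fold more. Peaks held 24303 tags with CLAMP, 0.627% of all tags, and 2243 with the mutant, 0.0377%. The mean peak held 56.7 tags with CLAMP and 32.0 with the mutant, a 1.77-fold difference. Per 10000000 tags this is 146 and 53.9, a 2.71-fold difference. The tag threshold for calling a peak was 16 with CLAMP and 20 with the mutant, or 41.3 and 33.6 per 10000000 tags. Both the number of peaks and the tags in a peak were thus higher with CLAMP, each in 1 merged list.

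The peaks of both lists were what remained after strict filters, which removed nearly all candidates. With the mutant, 40837 putative peaks were found, 4.50-fold as many as the 9080 with CLAMP. Comparison with the negative control removed 99.4% of them with the mutant and 94.2% with CLAMP. Of the 250 mutant candidates left, 72% were then removed because the surrounding 10000 bp held too many tags, against 18.9% of the 529 left with CLAMP. A region missing from a list had not passed at least 1 filter, which is not the same as having no signal. Whether the larger number of mutant candidates had a bearing on the shorter list was not tested.

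Among the 4 lists of the CLAMP antibody, the list of MSL2 with CLAMP stood above the others and that of MSL2 with the mutant did not. Without MSL2, CLAMP gave 1.95-fold as many peaks as the mutant, in the FLAG lists 1.58-fold, and in the MSL2 antibody lists of the same mixtures as here 2.06-fold. The tags per peak were 89.0 per 10000000 for CLAMP alone and 86.4 for the mutant alone. The value of MSL2 with CLAMP was higher than both, and that of MSL2 with the mutant was lower than both. The 4 lists share their negative control, and their ratios were not tested against each other.

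**Figure D1:**
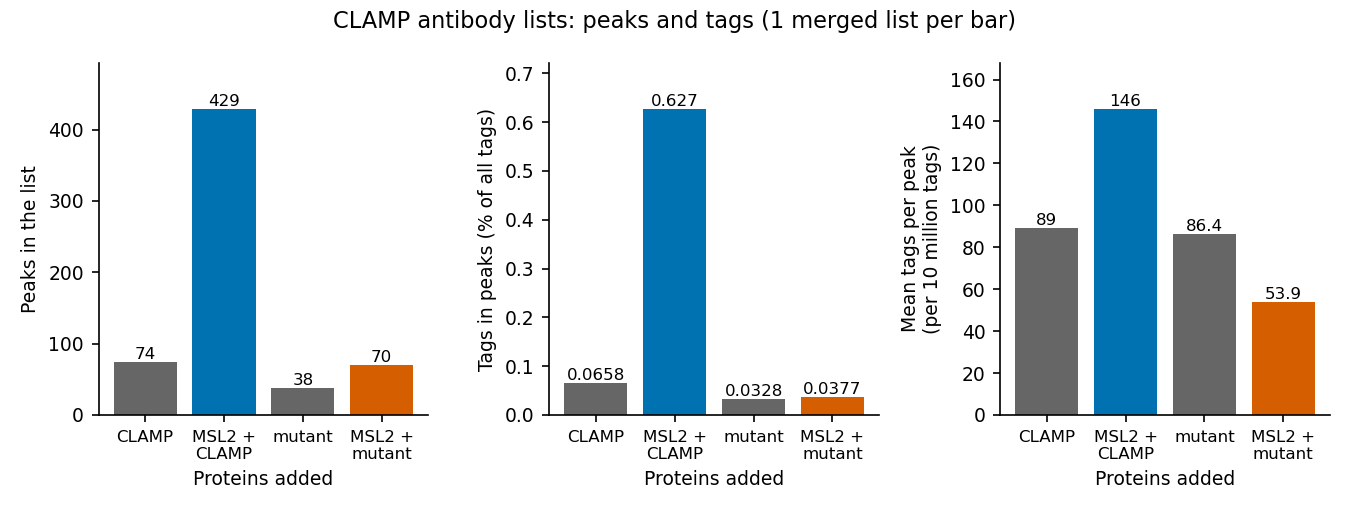
Peaks in the list, tags in peaks as a percentage of all tags, and mean tags per peak per 10000000 tags for the 4 CLAMP antibody lists, by the proteins added. Each bar is 1 merged list with no replicate error, and MSL2 + CLAMP is highest in all 3 panels (429 peaks, 0.627% and 146), while MSL2 + mutant (70 peaks, 0.0377% and 53.9) has the lowest mean tags per peak.

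The lists of CLAMP and the mutant had little in common. Of the 70 mutant peaks, 17 lay at a peak of CLAMP (24.3%, 14.8 to 36.0), which is 3.96% of the list with CLAMP (2.33 to 6.27). The second share is bounded by list length, since 70 mutant peaks can lie at only a small part of the list with CLAMP. Among all 1098 regions of the series, the list with CLAMP held 39.1% and the list with the mutant 6.38%. The same comparison without MSL2 gave 20 of 38 mutant peaks at a CLAMP peak (52.6%, 35.8 to 69.0) with the CLAMP antibody and 219 of 224 (97.8%, 94.9 to 99.3) with FLAG. For the MSL2 antibody in the same mixtures it was 170 of 226 (75.2%, 69.1 to 80.7). Of these 4 comparisons, the one with MSL2 present and the CLAMP antibody had the lowest share of mutant peaks in common. The mutant lists also differed in signal. Peaks held 0.0377% of tags here, 0.0328% with the CLAMP antibody without MSL2, 1.38% with FLAG and 0.394% with the MSL2 antibody. The mean mutant peak held 32.0, 39.6, 1450 and 363 tags in the same order. Whether this had a bearing on the shares was not tested.

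The 17 regions in both lists were close in place by the rule that defined them. All peaks of both lists are 151 bp long, so overlapping peaks must have centres less than 151 bp apart. Within this limit, the centres were 0 to 129 bp apart, with a median of 20 bp. In 11 of the 17 they were within 50 bp. Of the 17, 11 lay on X, 3 on 2R and 1 each on 2L, 3L and 3R. With the mutant list cut into 4 equal parts in file order, the parts held 10, 0, 4 and 3 of them. In the CLAMP list they were spread over places 7 to 377. What orders the lines is not stated in the headers, and the deposited score is 1 in every line.

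Of these 17 regions, 13 were also in the FLAG CLAMP list (76.5%, 50.1 to 93.2), made without MSL2, and 11 in the FLAG mutant list (64.7%, 38.3 to 85.8). A region counted here if either of its 2 peaks overlapped. The list of CLAMP alone held 9, that of the mutant alone 5, and the MSL2 antibody lists 5 for MSL2 alone, 6 for its mixture with CLAMP and 1 for that with the mutant. Most regions in both lists were thus also peaks of tagged CLAMP added by itself.

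The regions in both lists included genes of neuronal signalling. One lay in para, the voltage-gated sodium channel (X 16501654 to 16501850), and one in nAChRalpha3, a subunit of the nicotinic acetylcholine receptor (X 8301326 to 8301485). Each was held by both FLAG lists and by both CLAMP antibody lists made without MSL2. The region in para was in addition in the MSL2 antibody lists of MSL2 alone and of MSL2 with CLAMP, and the one in nAChRalpha3 in no MSL2 antibody list. Another lay in Tomosyn (X 12640713 to 12640918), which restrains transmitter release at synapses, also in both FLAG lists and in no MSL2 antibody list.

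Regulators of transcription and RNA formed another part. Regions lay in Sp1, a zinc finger factor of leg growth (X 9744198 to 9744444), in twi, the mesoderm factor Twist (2R 23046208 to 23046384), and in Him (X 18210373 to 18210652), whose product holds back muscle differentiation. Another was 328 bp from Rx, the retinal homeobox gene (2R 20916268 to 20916425). The region near Rx was the only one of the 17 that no other list held. Rbp6, which encodes an RNA-binding protein (3L 17159667 to 17159818), was in 5 other lists, and only the lists of MSL2 alone and of MSL2 with the mutant by the MSL2 antibody lacked it.

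The remaining regions in both lists lay in Moe, which encodes moesin, a link between membrane and actin (X 8897339 to 8897494), in Paics, an enzyme of purine synthesis (X 12760394 to 12760544), in CG34408 (X 10224687 to 10224894), in CG1695 (X 20437029 to 20437241) and in msl-2. Outside gene bodies they lay 203 bp from CG34386 (2R 18062062 to 18062214), 1086 bp from CG18249 (3R 8223265 to 8223424) and 7978 bp from lncRNA:CR44658 (X 14133601 to 14133751). Distances from a gene are those of the mutant peak. In the region at lncRNA:CR43862 (X 20686634 to 20686854), the CLAMP peak overlapped the gene and the mutant peak ended 35 bp from it. The region near CG34386 was in 6 of the 7 other lists, as was that in para, and both were absent from the MSL2 antibody list of the mutant mixture.

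**Figure D2:**
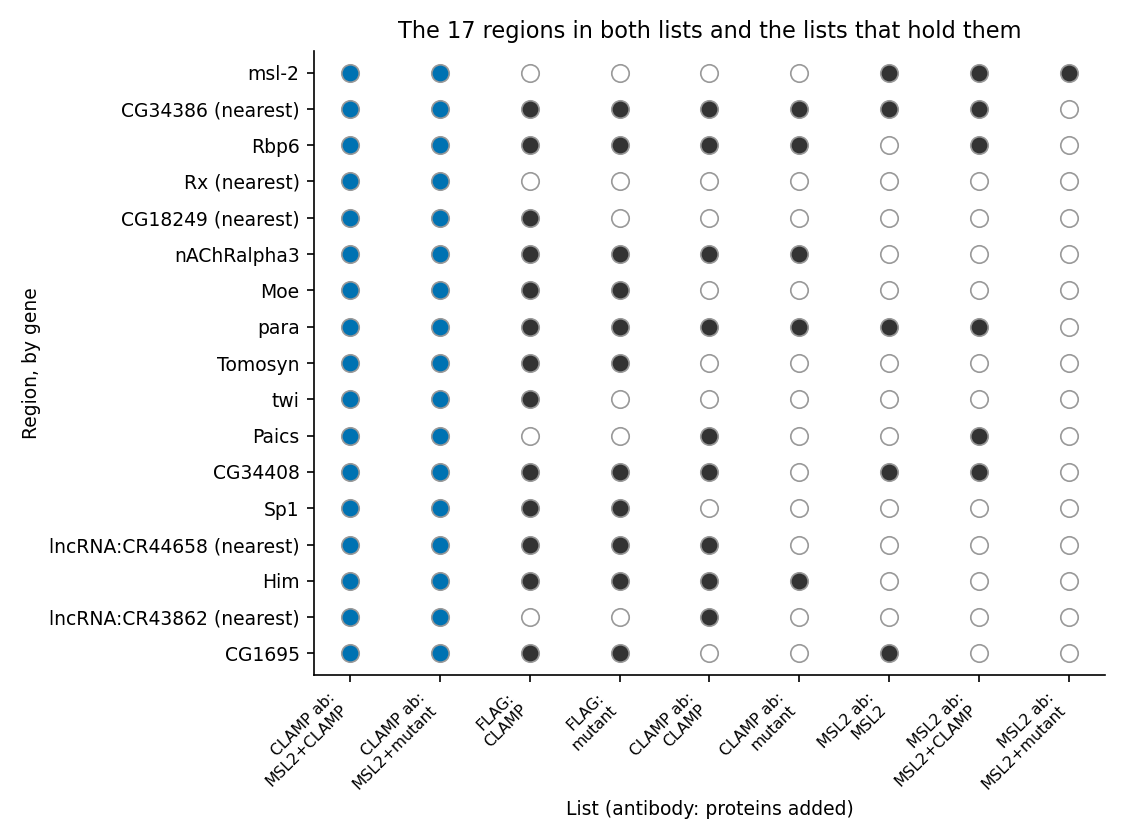
The 17 regions in both lists (rows, by gene, or by the nearest gene where none overlapped) and the 9 lists of the series (columns, by antibody and proteins added). A filled circle means that the list holds a peak there: the FLAG CLAMP column is filled for 13 regions and the MSL2 antibody column of the mutant mixture for 1, in msl-2.

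The 412 peaks found only with CLAMP were mostly of 3 kinds. Of these, 142 lay at a FLAG site of CLAMP or the mutant (34.5%, 29.9 to 39.3), and 206 were in none of the 7 other lists (50%, 45.1 to 54.9). Another 58 lay at a peak of the MSL2 antibody without a FLAG peak (14.1%, 10.9 to 17.8), and 6 only at a CLAMP antibody peak of CLAMP alone or the mutant alone. Of these 3 kinds, the peaks at MSL2 antibody sites without FLAG had the highest share on X, 70.2% (40 of 57, 56.6 to 81.6), against 48.6% (40.1 to 57.1) at FLAG sites and 47.1% (40.1 to 54.1) among those of no other list. They also lay in a gene body at the highest share, 94.7% (85.4 to 98.9) against 76.8% (68.9 to 83.4) and 76.7% (70.3 to 82.3).

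The first peaks found only with CLAMP in file order were nearly all FLAG sites of the mutant as well. Of the first 12, 11 were in both FLAG lists, against 103 of all 412 (25%, 20.9 to 29.5). They included trh (3L 378119 to 378269), which directs the forming trachea, bru3 (3L 13629594 to 13629744), whose product binds RNA, and spok, an enzyme of ecdysone synthesis (3R 3344854 to 3345004). They also included tei (2R 13629690 to 13629840), Pzl, a relative of the mechanosensitive channel Piezo (3R 3033551 to 3033701), mtd (3R 5282938 to 5283088) and ftz-f1, a nuclear receptor of the ecdysone cascade (3L 18787973 to 18788123). With the CLAMP antibody and no MSL2, the mutant had a peak at 2 of the 12, in tei and near lncRNA:CR45451. Antibody and MSL2 both differ between the FLAG lists and the mutant list with MSL2, so their parts cannot be told apart here. Others of the 12 lay in CG13954 and CG42524, and 3006 bp from tRNA:Phe-GAA-1-6 and 2280 bp from lncRNA:CR45451. The remaining one, the first line of the list, lay far from genes, 60892 bp from CG14621 (X 22383185 to 22383335), and was in no other list.

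The sites of the other lists give the same comparison from the other side. Of the 354 FLAG CLAMP sites, the CLAMP antibody found 152 with MSL2 and CLAMP (42.9%, 37.7 to 48.3) and 13 with MSL2 and the mutant (3.67%, 1.97 to 6.20). Of the 224 FLAG sites of the mutant itself it found 114 with CLAMP (50.9%, 44.1 to 57.6) and 12 with the mutant (5.36%, 2.80 to 9.17). The sites of the mutant alone, read with the same antibody, were found at 21 of 38 with CLAMP (55.3%, 38.3 to 71.4) and at 6 of 38 with the mutant (15.8%, 6.02 to 31.3), though all lists of this antibody share their negative control. As a share of sites, sites of the mutant without MSL2 were thus found more often with CLAMP and MSL2 than with the mutant and MSL2. The intervals of each pair did not overlap, but they leave out the spread between libraries and the list with CLAMP is 6.13-fold longer. As a share of each list, the directions differed. Peaks at FLAG mutant sites made up 26.6% of the list with CLAMP (22.5 to 31) and 17.1% of that with the mutant (9.18 to 28). Peaks at CLAMP antibody sites of the mutant alone made up 4.9% (3.06 to 7.39) and 8.57% (3.21 to 17.7). The intervals overlapped in both of these pairs.

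FLAG CLAMP sites that the mutant shared were found more often in the list with CLAMP than those it lacked. Of the 219 with a FLAG mutant peak, 112 were found with MSL2 and CLAMP (51.1%, 44.3 to 57.9), and of the 135 without, 40 (29.6%, 22.1 to 38.1). With MSL2 and the mutant the counts were 11 of 219 (5.02%, 2.53 to 8.81) and 2 of 135 (1.48%, 0.180 to 5.25), with overlapping intervals. Of the 13 found with the mutant, 10 were found with CLAMP too.

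MSL2 sites were also found more often in the list with CLAMP, which is 6.13-fold longer. Of the 132 peaks of MSL2 alone, 61 had a CLAMP antibody peak with CLAMP (46.2%, 37.5 to 55.1) and 5 with the mutant (3.79%, 1.24 to 8.62). Of the 226 MSL2 peaks measured in the mutant mixture itself, 25 lay at a CLAMP antibody peak of the mixture with CLAMP (11.1%, 7.29 to 15.9) and 3 at one of the mixture with the mutant (1.33%, 0.275 to 3.83). The 3 were 2 regions in msl-2 and 1 in Clamp.

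The 53 peaks found only with the mutant were mostly in no other list. This held for 49 of the 53 (92.5%, 81.8 to 97.9), against 206 of the 412 found only with CLAMP and 1 of the 17 in both. By the CLAMP peaks of the 17 alone it was 2. No peak found only with the mutant lay at an MSL2 antibody peak of MSL2 alone or of MSL2 with CLAMP, where the exact interval of 0 of 53 reaches 6.72% and the limit of 3 counts is 5.66%. The 4 in other lists lay in Clamp (2L 22166622 to 22166772), msl-2 (2L 3463982 to 3464132), mgl, a lipoprotein receptor gene (X 9380527 to 9380677), and Ran, the GTPase of nuclear transport (X 11144974 to 11145124). Those in Clamp and msl-2 were in the MSL2 antibody list of the mutant mixture, that in mgl in both FLAG lists, and that in Ran, named after its values were seen, in the CLAMP antibody lists of CLAMP alone and the mutant alone.

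**Figure D3:**
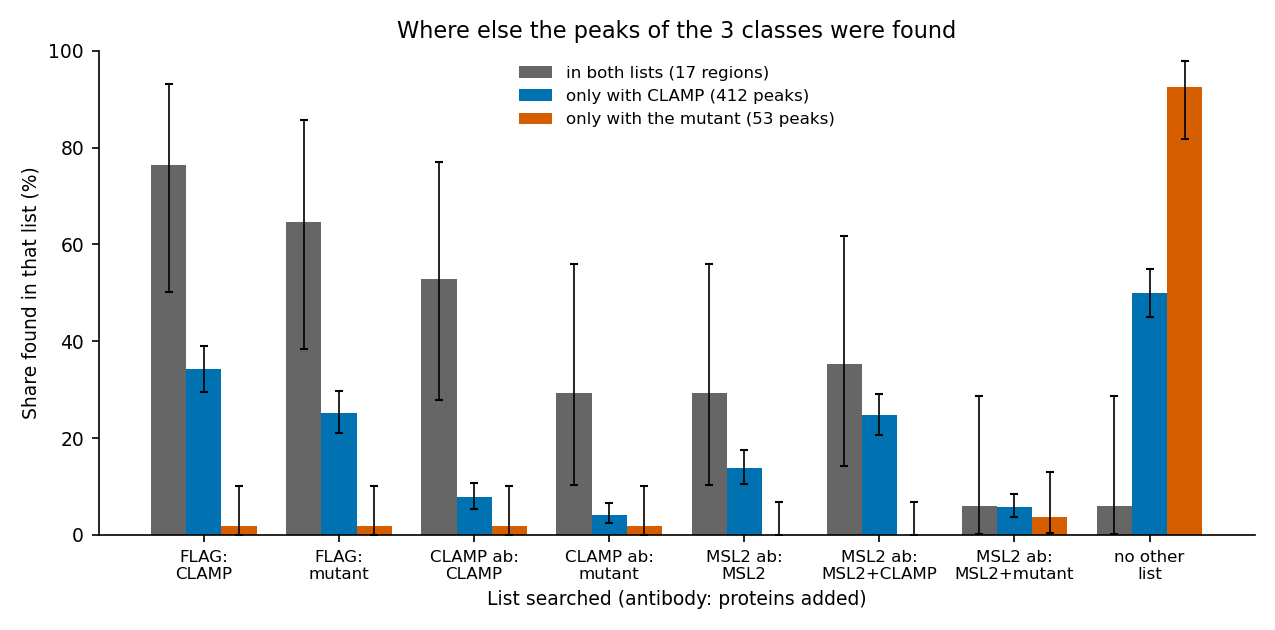
Share of the regions in both lists (17), of the peaks only with CLAMP (412) and of those only with the mutant (53) that lay at a peak of each of the 7 other lists or of none, in percent, with exact 95% intervals as error bars. The regions in both lists reached 76.5% in the FLAG CLAMP list, the peaks only with CLAMP 34.2% and those only with the mutant 1.89%, of which 92.5% were in no other list.

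Some peaks found only with the mutant lay beside a CLAMP peak without overlapping it. Peak centres were within 500 bp in 4 of the 53. In msl-2 and in mgl the distance was 209 bp, in acj6, a POU factor of olfactory and other neurons, 368 bp, and in Tomosyn 465 bp. The neighbour in acj6 (X 15356679 to 15356829) was a site of both FLAG lists and of 2 MSL2 antibody lists, while the mutant peak (X 15356311 to 15356461) was in no other list. In mgl it was the mutant peak that lay at the FLAG sites, and the CLAMP peak (X 9380318 to 9380468) was in no other list. Over all 53 the median distance to a CLAMP peak was 75.8 kb, and 11, including these 4, were within 10 kb.

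**Figure D4:**
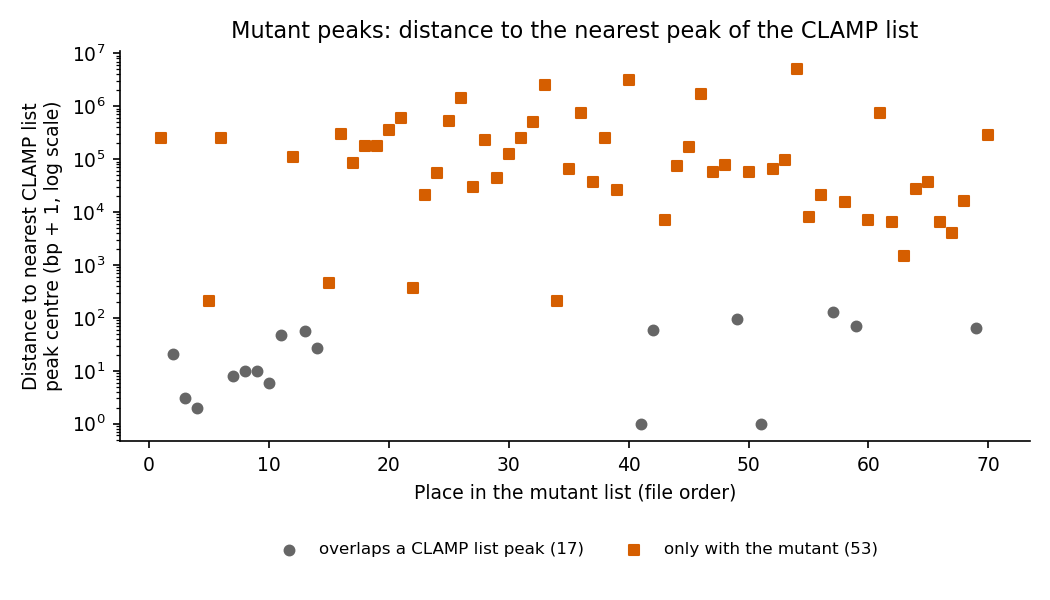
Distance from the centre of each of the 70 mutant peaks to the nearest peak centre of the CLAMP list (bp + 1, log axis), by place in the mutant list. The 17 peaks that overlap a CLAMP peak lie 0 to 129 bp away and the 53 others from 209 bp upwards, with a median of 75.8 kb.

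The first peaks found only with the mutant lay at genes of several functions. After Clamp and msl-2, the first 12 in file order included ACC, the first enzyme of fatty acid synthesis, which overlaps the nucleoporin gene Nup44A (2R 7989147 to 7989297). They also included SCAP, an escort of SREBP (2R 6035623 to 6035773), CG7744, CG12224, Tomosyn and acj6. Others lay 241 bp from CG15394, 462 bp from CG34221 and 2515 bp from CG1701. Apart from the peaks in Clamp and msl-2 at lines 1 and 5, none of these was in another list.

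The genes of the added proteins were among the first lines of the mutant list. Of its first 6 lines, 2 lay in Clamp (2L 22166622 to 22166772 and 22167448 to 22167598) and 2 in msl-2 (3463362 to 3463512 and 3463982 to 3464132 on 2L). In the list with CLAMP, msl-2 had 3 peaks (2L 3463342 to 3463492, 3463773 to 3463923 and 3465142 to 3465292) and Clamp had 0. Of these, 3463342 to 3463492 overlapped the mutant peak at 3463362 to 3463512. The other lists that held any of the peaks in msl-2 and Clamp were all of the MSL2 antibody, with MSL2 added. No FLAG list and no CLAMP antibody list without MSL2 held one. Whether the peaks in these genes stand for binding to chromatin was not tested. Without the peaks in these 2 genes, 16 of 66 mutant peaks lay at a CLAMP peak (24.2%).

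Of the other genes of dosage compensation, roX2, a noncoding RNA of the complex, had 1 peak with CLAMP (X 11580230 to 11580380) and 0 with the mutant. That place was also a peak of MSL2 alone and of MSL2 with CLAMP. The genes roX1, msl-1, msl-3, mof, mle and JIL-1 had no peak of either list in the body or within 2 kb.

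Several X-linked genes held peaks of both lists that did not overlap. Of the 20 protein-coding genes with a peak of each list in the body, 12 had a region in common and 8 did not. The zinc finger gene mamo, 144 kb long, had 7 peaks with CLAMP and 2 with the mutant, none in common. The lipoprotein receptor gene mgl had 7 and 1, the potassium channel gene eag 4 and 1, and the innexin gene shakB 4 and 1, also with none in common. Tomosyn, 21.8 kb long, had 4 and 3 with 1 in common, and the sodium channel gene para 1 and 2 with 1 in common. The Shaker potassium channel gene Sh had 7 peaks with CLAMP and 0 with the mutant, and Eip75B, an ecdysone-induced nuclear receptor gene, 5 and 0. The other 4 genes with peaks of each list and none in common were acj6, CG33181, CG42340 and kek5. In mgl and acj6 the mutant peak lay close to a CLAMP peak, with centres 209 and 368 bp apart. All 8 genes lie on X, as do the 12 with a region in common except msl-2, twi and Rbp6. Most of these genes are long. The median gene with a CLAMP peak in its body was 31.8 kb and with a mutant peak 26.0 kb, against 1.71 kb over all 17684 genes of the chromosome arms.

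Over all genes of the arms, 2.31% had a peak of the list with CLAMP in the body or within 2 kb (409 genes) and 0.435% one of the list with the mutant (77 genes), with 30 genes in both. The counts for gene lists below cannot be read against these shares, since several genes were listed because they were known to hold peaks in these data and the listed genes are long, with a median of 19.0 kb. Of 40 genes of ion channels and transmitter receptors, 13 had a peak with CLAMP and 5 with the mutant. The 4 in both were para, nAChRalpha3, eag and shakB. The gene na, of a sodium leak channel, had a peak of the mutant list within 2 kb and none of the list with CLAMP. That peak lay outside na, in the body of CG13404. Genes with a peak of the list with CLAMP and none of the mutant list were Ca-alpha1T and cac, calcium channel genes, Hk, SK and Sh of potassium channels, Slob, and the receptor subunits Rdl, nAChRalpha6 and nAChRbeta1.

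Of 41 genes of transcription regulators, 17 had a peak with CLAMP and 4 with the mutant, and all 4, Sp1, twi, acj6 and mamo, were among the 17. Those with a peak of the list with CLAMP and none of the mutant list were the ecdysone-response genes br, Eip75B and ftz-f1, the T-box gene bi, the POU gene pdm3, the head gene oc, the GATA cofactor gene ush, and Smr, OdsH, Cph, trh, dac and lz. Of 20 genes with GA-repeat promoters, 4 had peaks with CLAMP, which were hth with 4, Antp with 3 and en and Eip74EF with 1 each, and 0 had one with the mutant. Of 24 signalling genes, Cow, fz2, dome and Moe had peaks with CLAMP and Moe alone one with the mutant. Of 17 genes of synaptic release, Tomosyn, hiw, Frq1 and rsh had peaks with CLAMP and Tomosyn alone with the mutant. The 5 replication-dependent histone genes searched had none in either list. In these lists Clamp, in its body, and na, only within 2 kb, were the genes with a peak of the mutant and none of CLAMP.

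On the chromosome arms, both lists lay on X more often than its share of length. X made up 17.6% of the arms and held 222 of 428 CLAMP peaks (51.9%, 47.0 to 56.7) and 34 of 70 mutant peaks (48.6%, 36.4 to 60.8). The share was 64.7% for the regions in both lists (38.3 to 85.8), 51.3% for peaks only with CLAMP (46.4 to 56.3) and 43.4% for those only with the mutant (29.8 to 57.7), so the 3 intervals overlapped. X carried 9.43 CLAMP peaks per Mb and 1.44 mutant peaks per Mb. Chromosome 4 had 0 peaks in each list, for which the exact intervals reach 0.858% with CLAMP and 5.13% with the mutant and the limits of 3 counts are 0.701% and 4.29%. Its share of arm length, 0.951%, lay above the interval with CLAMP and within that with the mutant. One further CLAMP peak lay on Y. Gene bodies cover 69.6% of the arms and held 79.0% of CLAMP peaks (74.8 to 82.7) and 71.4% of mutant peaks (59.4 to 81.6).

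The X and autosomal mutant peaks lay at sites of the other lists in shares whose intervals overlapped, which does not show them to be alike. On X, 10 of 34 lay at a FLAG mutant site (29.4%, 15.1 to 47.5), and on autosomes 2 of 36 (5.56%, 0.680 to 18.7). At FLAG CLAMP sites the counts were 9 of 34 and 4 of 36, and at sites of CLAMP alone 8 of 34 and 2 of 36. At MSL2 peaks of the mutant mixture the counts were 0 of 34 and 3 of 36, and at those of the mixture with CLAMP 3 of 34 and 3 of 36. For CLAMP the shares at FLAG CLAMP sites were 33.8% on X (27.6 to 40.4) and 37.4% on autosomes (30.8 to 44.4). CLAMP peaks at an MSL2 peak of the same mixture made up 30.6% on X (24.6 to 37.1) and 18.9% on autosomes (13.8 to 25.0).

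These shares depended on the place in the file. Cut into 4 equal parts in file order, the CLAMP list had 28.3% (20.0 to 37.9), 42.1%, 63.6% and 73.1% (63.8 to 81.2) of its arm peaks on X. Its share at FLAG CLAMP sites went the other way, at 72% (62.5 to 80.2), 37.4%, 23.4% and 9.26% (4.53 to 16.4), and the share in no other list was 14.0%, 48.6%, 56.1% and 75.0%. The mutant list had 29.4%, 11.1%, 58.8% and 94.4% of its peaks on X. It had 41.2% (18.4 to 67.1) at FLAG CLAMP sites in the first part and 5.56%, 17.6% and 11.1% in the next 3. Its shares in no other list were 35.3%, 94.4%, 70.6% and 83.3%, highest in the second part, where the share on X was lowest. In both lists the first part had the highest share at FLAG CLAMP sites and the last part the highest share on X.

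The whole mutant list was also set beside the first 70 lines of the list with CLAMP, in file order. Of the first 70 CLAMP peaks, 58 were FLAG CLAMP sites (82.9%, 72 to 90.8) and 4 were in no other list (5.71%, 1.58 to 14.0). Of the 70 mutant peaks, 13 were FLAG CLAMP sites (18.6%, 10.3 to 29.7), 12 were FLAG mutant sites (17.1%, 9.18 to 28.0) and 50 were in no other list (71.4%, 59.4 to 81.6). Of the first 70 CLAMP peaks, 5 were in the mutant list. This sets the first lines of one list beside all lines of the other. In the first of 4 parts of the mutant list, 7 of 17 peaks were FLAG CLAMP sites (41.2%, 18.4 to 67.1). What orders the lines is not stated, and the cause of the difference was not tested.

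**Figure D5:**
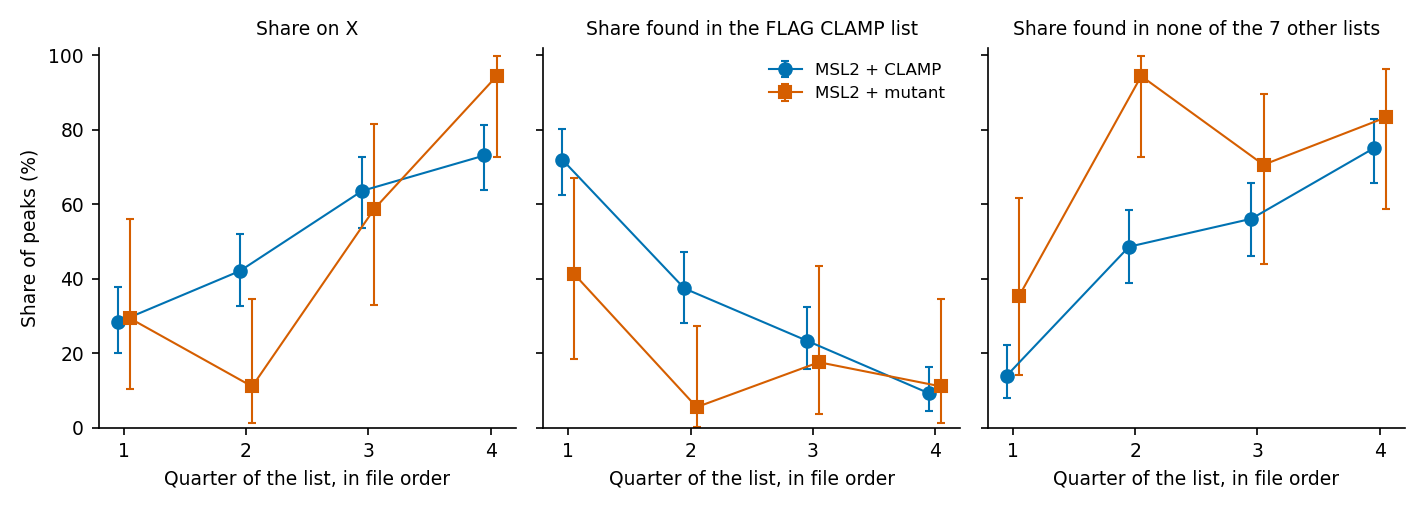
Share of peaks on X, found in the FLAG CLAMP list and found in none of the 7 other lists (percent, exact 95% intervals), for 4 equal parts of each list in file order, for MSL2 + CLAMP (circles) and MSL2 + mutant (squares). With CLAMP the share at FLAG CLAMP sites runs from 72% to 9.26% and the share on X from 28.3% to 73.1%.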

How the data were processed

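The data are peak lists from chromatin immunoprecipitation and sequencing of chromatin assembled in vitro. The submitters' processing notes name Bowtie2 2.2.9, SAMtools 1.9, HOMER 4.9 and the build dm6. Per the file headers, the authors merged the tags of each group and called peaks with HOMER findPeaks, using that antibody's negative control as input. Calling required 10 times the control's tags, 4 times those of a 10000 bp window around the peak (Poisson p of 1e-04 for either) and a false discovery rate of 0.001. The deposited score is 1 in every line, so a stricter threshold could not be set. Tags were scaled to 10000000 for calling, and all peaks of both lists are 151 bp long. Tag totals, from 3875205 to 5949274 in the 2 lists, were read from the headers.

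Starts were converted to 1-based positions. Overlaps were counted with Python 3.11.15 and scipy 1.17.1, checked against bedtools 2.31.1 and tested on simulated data. Shares carry exact (Clopper-Pearson) 95% intervals. They cover counting error only. Genes were placed with RefSeq's table for dm6, which has no strand or sequence, so GA repeats and gene starts were not analysed here. Of 164 listed gene entries, 161 matched, giving 155 genes in 8 lists.

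The comparison, the gene lists and the rule for named genes were chosen with earlier results of these data known. The rule names every region in both lists, the first 12 peaks of each other class in file order, up to 5 genes of each list, peaks found only with the mutant at FLAG mutant or same-mixture MSL2 sites, and the 5 genes with the most peaks (8 with ties). The lists of ion channel and transcription genes are given in full beyond it, as are Ran and the genes with peaks of each list. Ranking by width added none, as all widths are equal. Alternatives were other overlap rules, arms, parts of the lists, base pairs and gene margins.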

Additional observations from a re-analysis of the deposited data

How the results depend on the processing

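Of 129 alternative values over 48 results, 106 stayed within the 95% interval of the value reported or, for counts, within 1.5 times of it. The share of mutant peaks in the CLAMP list was 21.4% with reciprocal overlap of 50%, 30.0% with peak centres within 500 bp, 32.4% on X, 16.7% on autosomes and, in an alternative chosen after seeing the data, 24.2% without the peaks in msl-2 and Clamp. With the CLAMP list cut in file order to 70 peaks it was 7.14%, as was the share of those CLAMP peaks in the mutant list, since a shorter list holds fewer peaks to find. The X share was 35.2% and 68.4% in the first and second 50% of the CLAMP list, and 20.0% and 77.1% in those of the mutant list. Peaks only with CLAMP lay at FLAG CLAMP sites in 28.6% with reciprocal overlap of 50% and in 53.4% in the first 50% of the list. Within 2 kb of a gene body lay 94.1% of the regions in both lists and 87.3% of the peaks only with CLAMP, as a wider margin must give. The cause of the changes along the lists was not tested. Of the 86 alternative values for other results, 13 moved, among them the peaks only with the mutant at peaks of MSL2 alone and of MSL2 with CLAMP, each 7.55% with peak centres within 500 bp in place of 0. No paired analysis was possible because each group has 1 merged list. For the same reason no library could be left out. Gene starts, GA repeats and a stricter score were not run. What the tag totals, 3875205 and 5949274, allowed either list to detect was not tested.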
